A study of Mus musculus with 2 samples.

Results

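The 10 acute phase genes examined were Lcn2, Saa1, Saa2, Saa3, Hp, Orm1, Orm2, Serpina3n, Serpina3g and Chil1. This set, listed by gene name, was chosen with earlier results of these data known. Its genes were found as the array probes whose accession is a RefSeq transcript of one of them. Of the 10, 9 had a probe, among 20657 genes with a named probe in all, and Serpina3g had none. RNA came from ATDC5, a mouse cell line of teratocarcinoma origin that turns into cartilage-forming chondrocytes when insulin, transferrin and selenite (ITS) are supplied. The A-CEBP sample was a stable ATDC5 line with a doxycycline-inducible A-CEBP transgene, and the GFP sample a stable line with inducible GFP. Both lines were given 2 µg/mL doxycycline over 2 days and then ITS for 3 weeks, so doxycycline exposure and differentiation were common to both. A-CEBP binds C/EBP transcription factors in dimers that cannot hold DNA, and so acts as a dominant negative. Each group was 1 sample on 1 array: A-CEBP itself and whatever else set the 2 cultures apart cannot be told apart, and there is no replicate check. The sources used here do not say whether a line was 1 clone, and no probe was named for either transgene.

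Acute phase proteins are secreted proteins whose production rises sharply in inflammation. In the liver, interleukin-6 acts on their genes through STAT3 and C/EBP factors, and interleukin-1 and tumour necrosis factor through NF-kB. Cells outside the liver, chondrocytes and fibroblasts among them, also make several of these proteins. The comparison asks how these genes stood in chondrogenic cells that carried an inducible dominant negative of C/EBP factors. How far it blocked those factors was not measured here.

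Of 9 genes with a probe, 4 were well above background on both arrays (Lcn2, Saa1, Hp and Chil1), and all 4 were at least 2-fold lower in the A-CEBP sample. Another 4 (Saa2, Saa3, Orm2 and Serpina3n) were well above background in GFP alone, and Orm1 was so in neither. None was seen in A-CEBP alone, a class of 674 genes of which 9.35% had a bound of 2-fold higher. The background for the count of 4 is that 1.71% of the 13860 genes measured on both arrays met the 2-fold rule downward, and 1.25% upward. Those shares come from 237 lower and 173 higher genes, a split that became 180 lower and 325 higher with scaling on spike-in spots, under which the median over all genes was 0.24 in place of 0.04. The 4 measured acute phase genes had a median log2 difference of -5.25, against 0.04 for all genes. Because the set was chosen with earlier results of these data known, its contrasts with all genes are description and not independent support. Levels below are log2 of the background-subtracted spot signal minus the 75th percentile of the array, so that 0 is that percentile, and differences are A-CEBP minus GFP. Each of the 9 genes had 1 probe with 1 spot. The error given for a difference is the propagated error of the scanner software, which covers measurement within an array and not variation between cultures.

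**Figure D1:**
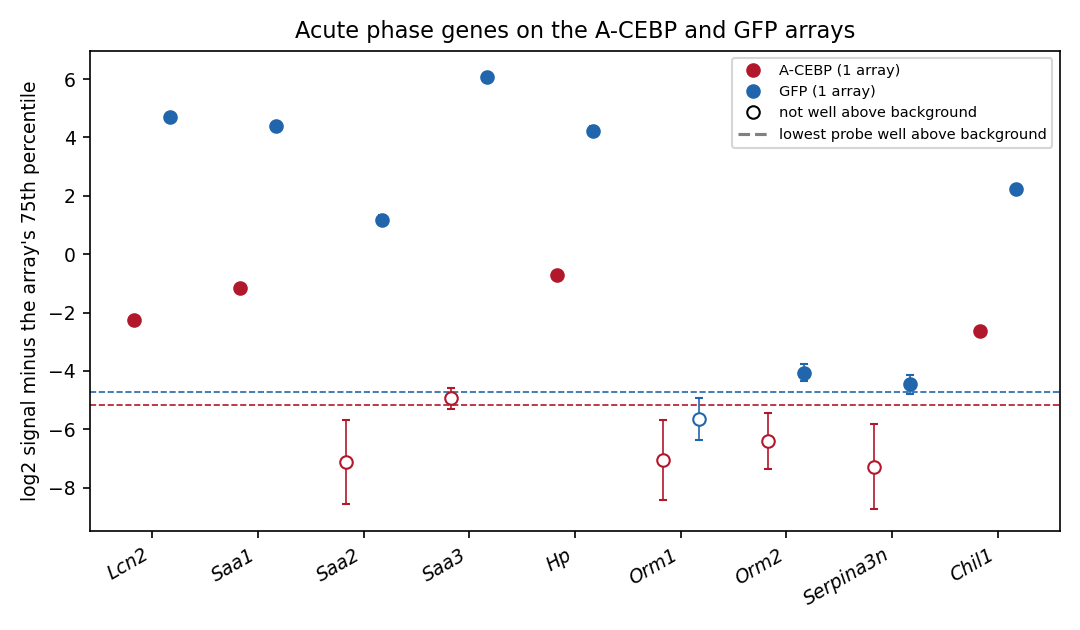
Log2 signal minus the array's 75th percentile (y axis) for the 9 acute phase genes with a probe (x axis), in the A-CEBP sample (red) and the GFP sample (blue), 1 array each; bars are the scanner software's error, open points were not well above background, and dashed lines mark the lowest probe well above background on each array (-5.19 in A-CEBP, -4.72 in GFP). In each of the 9 genes the A-CEBP point lies below the GFP point. Negative control spots also read lower in A-CEBP (median 6.11 units, against 7.88 in GFP), so the direction says little where both points are open, as for Orm1. Heights of different genes are not comparable because each probe has its own response.

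Lcn2 encodes lipocalin 2, a secreted protein that binds bacterial siderophores and so withholds iron. Its processed signal was 187 units in the A-CEBP sample and 22435 units in the GFP sample, which is -2.27 in A-CEBP and 4.69 in GFP on the scaled log2 scale. The difference was -6.96 with a scanner error of 0.21, a 125-fold lower level with A-CEBP. Before processing, the spot's median pixel signal was 246 over a local background of 46 in A-CEBP, and 19677 over 51 in GFP. Lcn2 had the lowest difference of the 13860 genes. The sequence before the Lcn2 start is shown because Lcn2 ranked lowest of all genes and because its promoter holds a C/EBP motif. It is the 250 bases at chr2:32387740-32387989 on the minus strand (RefSeq, GRCm38.p6), 5′ to 3′, with the match to TTGCNNAA in capitals.
Lcn2: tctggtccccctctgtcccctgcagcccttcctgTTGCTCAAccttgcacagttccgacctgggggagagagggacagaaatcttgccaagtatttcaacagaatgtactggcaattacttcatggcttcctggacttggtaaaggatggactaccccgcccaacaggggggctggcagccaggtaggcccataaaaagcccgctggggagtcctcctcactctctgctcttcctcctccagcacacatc
The motif spans positions -216 to -209 from the start, on the strand of the gene.

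The serum amyloid A genes lie in 1 cluster on mouse chromosome 7 and encode small apolipoproteins that travel on high-density lipoprotein. Saa1 and Saa2 are mainly liver genes in the acute phase, and Saa3 is the form made largely outside the liver in mice. Saa1 gave 403 units in the A-CEBP sample and 18262 units in the GFP sample, a difference of -5.56 (scanner error 0.21), or 47.1-fold lower. This was the fifth lowest of all genes measured on both arrays.

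Saa3 read 29.5 units in the A-CEBP sample, not well above background, and 58737 units in the GFP sample. Its unprocessed median signal was 99 over a local background of 38 in A-CEBP, and 50368 over 42 in GFP. Of 308 negative control spots on the A-CEBP array, 3 read as high as Saa3 or higher. The ratio of the readings gives a bound of at least 2069-fold lower, set by the dim reading itself, and at least 510-fold with normexp background correction. Saa2 read 6.49 units in the A-CEBP sample, a value reached by 100 of the 308 negative controls, and 1973 units in the GFP sample. It was thus at least 82.7-fold lower against the lowest probe well above background on the A-CEBP array, and at least 20.7-fold lower with normexp. Transcripts of Saa1 and Saa2 are close relatives, and how far their probes share signal was not tested.

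The promoters of Saa3 and Saa2 are shown for the largest bounds among these genes, with Saa1 as a short window for comparison with its neighbour. Saa3 is chr7:46715677-46715926 (minus strand) and Saa2 chr7:46751583-46751832 (plus strand), each 250 bases before the start. The Saa1 window is 30 bases at chr7:46743144-46743173 (minus strand). All are from RefSeq, GRCm38.p6, 5′ to 3′, and capitals mark the C/EBP match.
Saa3: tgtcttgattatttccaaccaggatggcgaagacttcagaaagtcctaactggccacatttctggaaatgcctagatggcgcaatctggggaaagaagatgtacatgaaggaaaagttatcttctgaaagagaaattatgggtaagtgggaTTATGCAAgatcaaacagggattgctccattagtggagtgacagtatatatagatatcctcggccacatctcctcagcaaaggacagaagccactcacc
Saa2: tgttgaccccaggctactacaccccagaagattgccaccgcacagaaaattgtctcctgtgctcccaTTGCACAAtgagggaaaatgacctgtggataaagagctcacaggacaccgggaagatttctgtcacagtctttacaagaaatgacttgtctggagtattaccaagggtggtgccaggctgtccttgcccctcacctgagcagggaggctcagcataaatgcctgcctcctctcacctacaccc
Saa1: ctgtgctcccaTTGCACAAtgagggagaat
Across 250 bases before the start, Saa1 and Saa2 were 94.8% identical in a global alignment, while Saa3 was 52.5% identical to Saa1 and 51.8% to Saa2. The match begins at position -182 from the start in Saa1, -183 in Saa2 and -99 in Saa3, where it lies on the strand opposite to the gene.

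Hp encodes haptoglobin, which captures free haemoglobin. It gave 551 units in the A-CEBP sample and 16354 units in the GFP sample, a difference of -4.95 with a scanner error of 0.20, or 30.8-fold lower. Chil1 encodes a secreted chitinase-like glycoprotein that articular chondrocytes release in human arthritis. It gave 145 units in the A-CEBP sample and 4075 units in the GFP sample, a difference of -4.87 (scanner error 0.21), or 29.2-fold lower, and 18.6-fold lower with normexp. Hp ranked 9 and Chil1 ranked 10 from the lowest of all genes measured on both arrays. The promoter of Chil1 is shown as one without the C/EBP letters, at chr1:134181906-134182155 on the plus strand (RefSeq, GRCm38.p6), 5′ to 3′.
Chil1: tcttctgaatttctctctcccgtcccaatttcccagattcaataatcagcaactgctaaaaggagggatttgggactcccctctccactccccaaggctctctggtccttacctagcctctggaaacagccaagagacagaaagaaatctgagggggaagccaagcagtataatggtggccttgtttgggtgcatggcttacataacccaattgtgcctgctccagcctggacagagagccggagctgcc

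Orm1 and Orm2 encode alpha-1-acid glycoproteins, plasma carriers of lipophilic molecules, and lie in 1 cluster on mouse chromosome 4 with Orm3. Orm2 read 10.7 units in the A-CEBP sample, where 5 of 308 negative controls read as high, and 52.2 units in the GFP sample. Its bound was at least 2.19-fold lower, and at log2 values of 0.93 with spike-in scaling and 0.49 with normexp it dropped under 2-fold. Orm1 read 6.82 units in the A-CEBP sample and 17.3 units in the GFP sample, neither well above background, so no fold is given. As high or higher read 54 of 308 negative controls in A-CEBP and 4 of 308 in GFP. The Orm2 promoter carries the C/EBP letters as a palindrome, at positions -120 to -113 from its start. The window is chr4:63362318-63362347 on the plus strand (RefSeq, GRCm38.p6), 5′ to 3′, with the match in capitals.
Orm2: gagagaacattTTGCGCAAgacatttccca

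Serpina3n encodes a serine protease inhibitor related to human alpha-1-antichymotrypsin. It read 5.82 units in the A-CEBP sample, a value reached by 188 of 308 negative controls, and 39.3 units in the GFP sample, a value reached by 0 of 308. The bound of at least 1.65-fold lower did not reach 2-fold. Serpina3g, which encodes a protease inhibitor of activated immune cells, had no probe and so no level, and enters the promoter search only.

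A bound of 2-fold or more was thus reached by 3 of the 4 genes seen in GFP alone, and by 2 of the 4 with spike-in scaling or normexp. This is to be read against a background of 56.7% of 171 such genes whose bound reached 2-fold. By size of bound, Saa3 ranked 1 and Saa2 ranked 4 of the 171, while Orm2 ranked 86 and Serpina3n 138. At a stricter size of 16-fold, chosen after the values were seen, 0.101% of the genes measured on both arrays were lower, which is 14 genes, 4 of them Lcn2, Saa1, Hp and Chil1. Among the bounds, 11.1% reached 16-fold, or 19 genes, of which Saa3 and Saa2 were 2. Differences or bounds of 16-fold or more were thus found for 6 genes (Lcn2, Saa1, Saa2, Saa3, Hp and Chil1), while Orm2 and Serpina3n had a faint signal in GFP and Orm1 was not well above background in either sample.

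**Figure D2:**
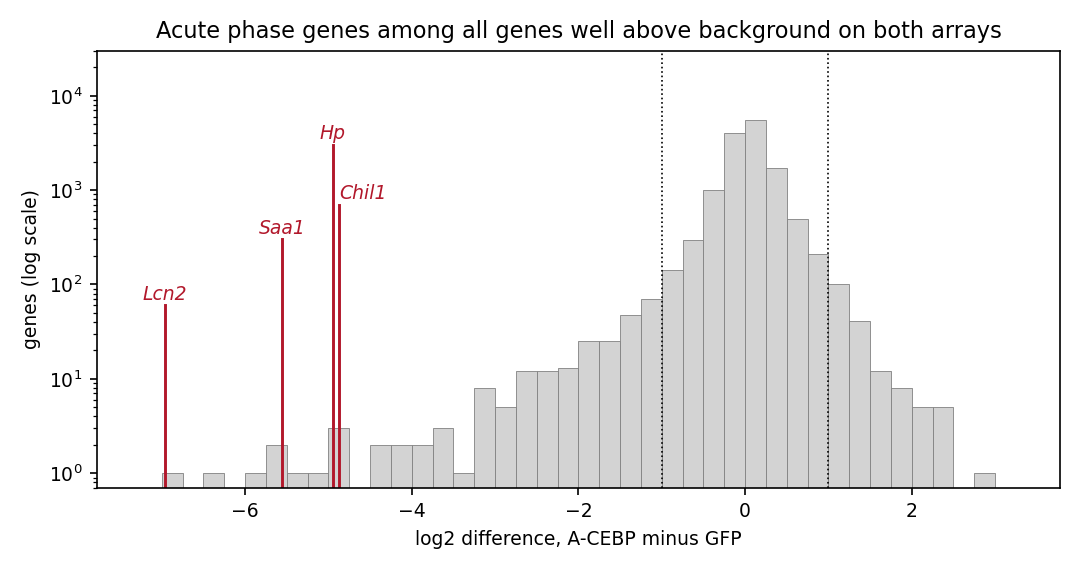
Number of genes (y axis, log scale) by log2 difference, A-CEBP minus GFP (x axis), over 13860 genes well above background on both arrays; dotted lines mark 2-fold and red lines the 4 acute phase genes measured on both arrays, their heights set only for the labels. Lcn2 lies at -6.96, Saa1 at -5.56, Hp at -4.95 and Chil1 at -4.87, left of nearly all genes.

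Spots within 2 rows and columns of each acute phase spot (7 to 13 spots well above background on both arrays) had median log2 differences from -0.15 to 0.28. No acute phase spot was saturated or marked as an outlier on either array. For scale, the SD of the difference was 0.11 over replicate spots of a probe (291 probes) and 0.19 over probes of a gene (3601 genes). With 2 arrays a pattern across samples is 1 difference, and the 5 genes outside the set closest to its median of -5.25 were Cxcl10 (-5.27), Casp4 (-5.15), C3 (-4.96), Ccl2 (-5.73) and Ccl7 (-5.82). Cxcl10, Ccl2 and Ccl7 encode chemokines, Casp4 an inflammatory caspase and C3 the central complement component.

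Motif letters were searched in the 250 bases before the start on both strands, for C/EBP (TTGCNNAA), NF-kB (GGG and CC with any 5 bases between) and STAT (TTCNNNGAA). The promoter table held 8 of the 10 genes, and not Hp or Orm1. The C/EBP letters were in 5 of 8 (Lcn2, Saa1, Saa2, Saa3 and Orm2), where 9.56% of all 32851 promoter windows hold them, and the windows of Saa1 and Saa2 are near copies of each other. The NF-kB letters were in 6 of 8 (all but Saa3 and Orm2), against 45.8% of all windows. STAT letters were in 1 of 8, Serpina3g, against 7.02%. No C/EBP match overlapped a match of another motif, whereas NF-kB matches on opposite strands overlapped each other in Serpina3n and Chil1. Among the genes with a difference or bound of 16-fold or more, the letters were present before Lcn2, Saa1, Saa2 and Saa3. They were absent before Chil1, which was 29.2-fold lower, and Hp could not be searched. Of the faint genes with a bound, Orm2 had the letters and Serpina3n did not. These matches describe sequence and are not evidence of binding.

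**Figure D3:**
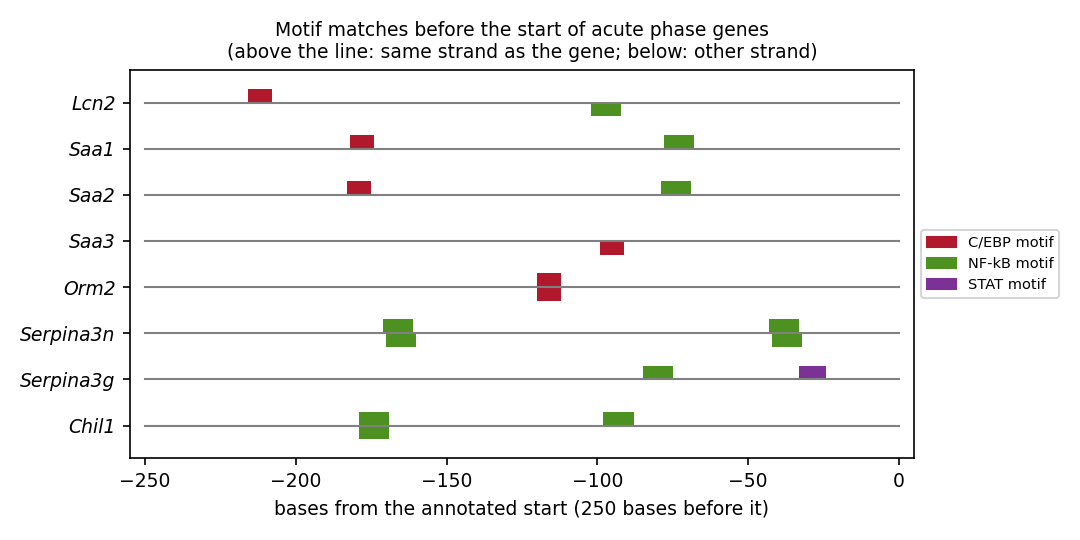
Positions of motif letters in the 250 bases before the annotated start (x axis, bases from the start) for 8 acute phase genes (rows), with C/EBP in red, NF-kB in green and STAT in purple; boxes above a line match on the strand of the gene and boxes below on the other strand. C/EBP letters stand before 5 genes, beginning between -216 in Lcn2 and -99 in Saa3.

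Of 16 paralogs of these genes with a probe, 8 failed the background mark on both arrays. Another 4 were measured on both arrays, and 0 of the 4 were 2-fold apart, with a median of -0.18 that turned to 0.023 with spike-in scaling. The brightest of the 4 in GFP was Serpina3h, named after its values were seen. It was at -1.11 in the A-CEBP sample and -0.71 in the GFP sample, a difference of -0.40. Chil3, a chitinase-like gene of macrophages, was at -1.06 in the A-CEBP sample and -1.78 in the GFP sample, a difference of 0.72. Serpina3f and Serpina3i, neighbours of Serpina3n in a cluster of inhibitor genes, were seen in GFP alone, with bounds of 5.01-fold for Serpina3f and 4.48-fold for Serpina3i. Orm3, also seen in GFP alone, had a bound of 1.88-fold. Saa4, the constitutive member of its family in humans, was not well above background on either array.

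In a list of other genes linked to the acute phase, not all of them for plasma proteins, 15 genes were measured on both arrays. Of these 7 were 2-fold lower or more and 0 higher, with a median of -0.49, and with spike-in scaling 4 were lower and 1 higher. Vnn1, which encodes the enzyme pantetheinase, was lower by 1.88 on the log2 scale, at -4.07 in the A-CEBP sample and -2.19 in the GFP sample. Lbp, whose protein carries bacterial lipopolysaccharide to its receptor, differed by -1.65 (-2.66 in A-CEBP and -1.01 in GFP). Ptx3, a long pentraxin made outside the liver, differed by -1.45. Steap4, a metalloreductase gene, was seen in GFP alone, with a bound of 22.2-fold lower. Among the 25 probed genes of this list, 8 failed the background mark on both arrays (Fgb, Fgg, Crp, Apcs, Itih3, Hamp, A2m and C4bp). Other products of the liver were measured on both, among them Hpx, Itih4, Fga, Serpina1a and Cp, which were named after their values were seen. Cp differed by -1.27 (5.14 in A-CEBP and 6.41 in GFP) and Itih4 by -1.05, so both were among the 7 lower genes. Hpx differed by -0.34, and Fga (-0.36) and Serpina1a (-0.49) had a faint signal on both arrays.

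Of 10 cytokines that induce the acute phase or are related to its inducers, 4 were measured on both arrays. The other 6 (Il1a, Il1b, Tnf, Osm, Il17a and Ifng) were not well above background on either. Il6 stood at -1.93 in the A-CEBP sample and 2.19 in the GFP sample, a difference of -4.11, or 17.3-fold lower. Il22, of the interleukin-10 family, differed by -0.47, and Il11 and Lif, of the interleukin-6 family, by 0.31 and -0.14. Il22 and Lif had a faint signal on both arrays, Il22 at -4.30 in A-CEBP and -3.84 in GFP, and Lif at -4.13 and -3.98. The list thus held 1 gene past the 2-fold rule, and its median was -0.31.

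Receptors and signal transducers had 17 genes measured on both arrays, with 2 of them 2-fold lower or more and 0 higher, with a median of -0.21. Tnfrsf1b, a receptor of tumour necrosis factor, differed by -1.35 (-4.13 in A-CEBP and -2.78 in GFP), and Socs3, the feedback inhibitor of interleukin-6 signalling, by -1.22 (1.97 in A-CEBP and 3.19 in GFP). With normexp 1 of the 17 was past 2-fold. Traf3ip2, an adaptor of the interleukin-17 receptor, differed by -0.73. The probe taken for Stat3 differed by -0.68 and its other probe by -1.02.

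Transcription factors of the response had 5 of 15 measured genes at least 2-fold lower (4 with spike-in scaling) and 0 higher, with a median of -0.31. Bcl3, a nuclear partner of NF-kB, was at -1.40 in the A-CEBP sample and 1.60 in the GFP sample, an 8.01-fold lower level. Nfkbiz, an inducible nuclear cofactor of NF-kB that acts on Lcn2, differed by -1.93 (-1.98 in A-CEBP and -0.053 in GFP). Cebpd, itself an acute phase transcription factor, differed by -1.89, at 4.43 in the A-CEBP sample and 6.31 in the GFP sample. Nfkbia, the inhibitor of NF-kB, differed by -1.47. The fifth was Relb, at -1.13, and Cebpb stood just inside the 2-fold rule at -0.94, both named after their values were seen.

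Receptors and partners of the acute phase proteins had 1 of 9 measured genes at least 2-fold lower. Tlr2, a receptor reported for serum amyloid A, was at 1.53 in the A-CEBP sample and 3.90 in the GFP sample, or 5.15-fold lower. Slc22a17, a cell surface receptor of lipocalin 2, differed by 0.46, and Scarb1, which takes up lipoprotein lipid, by 0.33 (0.029 on its other probe). Il13ra2, a receptor reported for the Chil1 protein, differed by -0.94 with a faint signal on both arrays, at -4.99 in A-CEBP and -4.05 in GFP. The median of the list, -0.079, turned to 0.12 with spike-in scaling.

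**Figure D4:**
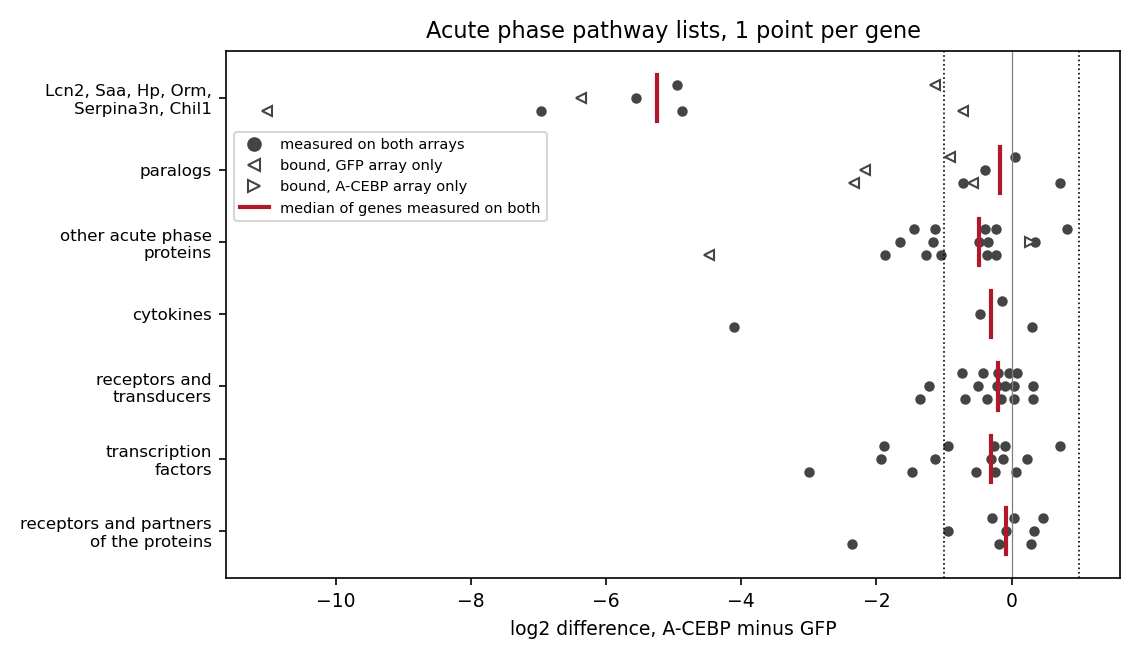
Log2 difference, A-CEBP minus GFP (x axis), 1 point per gene, for the acute phase genes (top row) and 6 lists of related genes; filled points were measured on both arrays, open triangles are bounds, red bars are medians of the filled points and dotted lines mark 2-fold. The acute phase genes have a median of -5.25, and the lists have medians from -0.49 to -0.079. At least 2-fold lower were 7 of 15 measured genes of the other acute phase list and 5 of 15 transcription factors, against 1.71% of all genes. In both lists 0 were 2-fold higher. The lowest filled point of the 6 lists is Il6 at -4.11.

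Markers of chondrocytes, hepatocytes, macrophages, neutrophils and adipocytes are given beside these results, and their part in them was not tested. Both cultures were lines of ATDC5, so a marker reading does not show that cells of its type were present. Sums are over the markers well above background on at least 1 array, relative to the 75th percentile. All but the adipocyte sum rest largely on their brightest probe, so that changes of dimmer markers hardly show in them. In A-CEBP and in GFP, the brightest probe gave 87.2% and 87.3% of the chondrocyte sum (Col2a1) and 92.1% and 90.4% of the hepatocyte sum (Apoa2). It gave 94.1% and 92.5% of the macrophage sum (Itgam), and 96.9% and 96.9% of the neutrophil sum (Csf3r). For the adipocyte sum (Pparg) the shares were 64.1% and 45.1%. There Pparg differed by 0.31, and the dimmer Fabp4, at -0.13 in A-CEBP and 1.78 in GFP, does show in the sum. Chondrocyte markers were present: 9 of 10 were measured on both arrays, 2 reached 2-fold higher (Hapln1 at 1.42 and Acan at 1.30), and their summed scaled signal was 463 in the A-CEBP sample and 344 in the GFP sample. Of 10 hepatocyte markers 6 were measured on both arrays with 0 at 2-fold, a median of -0.16 and sums of 4.51 in A-CEBP and 3.92 in GFP. Several were faint, close to the lowest probe well above background, which limits how far they could fall. These were Serpina1a (-5.00 in A-CEBP and -4.52 in GFP), Fga (-4.78 and -4.42) and Cyp2e1 (-4.75 and -4.56). Alb, Ttr and Apoa1 were not well above background on either array. Of 9 macrophage markers with a probe 2 were measured on both arrays (Itgam at 0.23 and Csf1r at -0.14, each with another probe of opposite sign), with sums of 27.1 in A-CEBP and 23.5 in GFP, and Adgre1, Ptprc and Tyrobp were not well above background on either. Of 9 neutrophil markers with a probe 4 were measured on both arrays and 2 reached 2-fold lower, Camp (-1.90) and S100a8 (-1.76), while Csf3r and Elane differed by -0.20 and 0.036. The neutrophil sums were 69.8 in A-CEBP and 80.3 in GFP, and S100a9, Mpo, Ngp and Ltf were not well above background on either array. Of 10 adipocyte markers 5 were measured on both arrays, 1 of them lower (Fabp4 at -1.92), with a median of -0.14 and sums of 10.2 in A-CEBP and 11.7 in GFP. In a bulk sample, fewer cells of a type and less RNA per cell cannot be told apart.

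**Figure D5:**
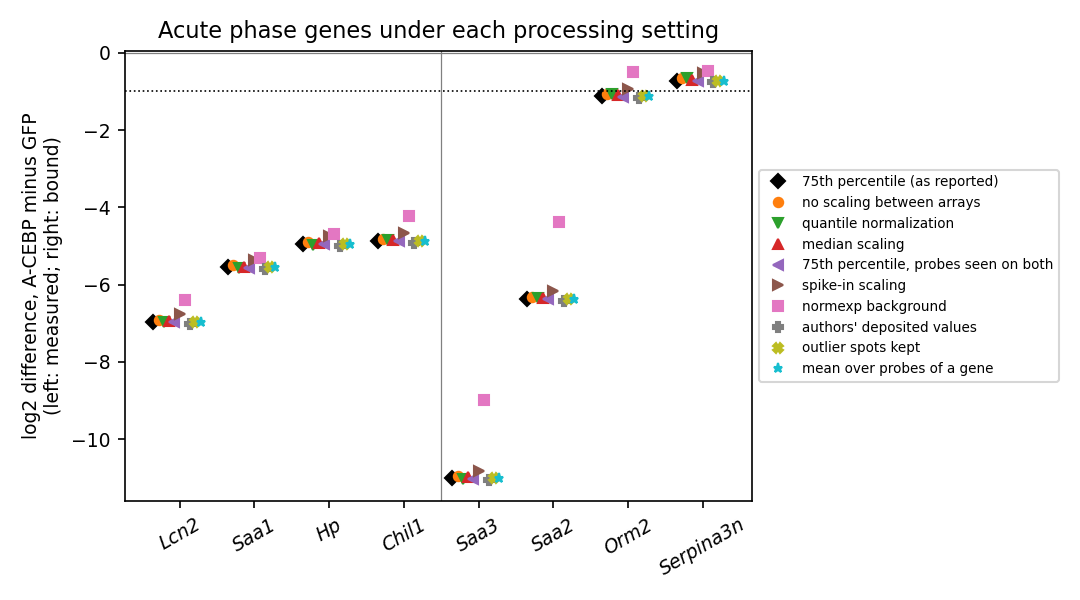
Log2 difference, A-CEBP minus GFP (y axis), of 4 acute phase genes measured on both arrays (left of the line) and lower bounds of 4 genes seen in GFP alone, drawn downward (right), under the reported setting (black) and 9 others; the dotted line marks 2-fold. The measured genes lie at or below -4.22 in every setting drawn, while the Orm2 bound crosses the 2-fold line with spike-in scaling and normexp.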

How the data were processed

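The A-CEBP and GFP samples gave 0.1 µg of RNA each for Cy3 labelling and a 1-colour Agilent array, per the labels' protocols. Both arrays shared 1 slide and 1 scan. In the deposited files the spot intensity is already background-subtracted and detrended within its array, per the file headers, by Agilent Feature Extraction 10.10.1.1 (per the submitters' processing notes), and is not scaled between arrays. Marks of 0 or 1 per spot (other) were deposited with it. The authors' deposited value table proved to be that intensity multiplied by a constant of 1.15 for A-CEBP and 1.24 for GFP. It is linear and uncentred, with column medians of 67.4 for A-CEBP and 70.9 for GFP. The origin of the constants is unknown here.

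Control spots and 293 outlier spots were dropped, and log2 intensity was set relative to the 75th percentile (902 units in A-CEBP, 868 in GFP). Of 59305 spots, 58.0% in A-CEBP and 54.6% in GFP were well above background. A probe counted as such when over 50% of its spots did. The brightest probe measured on both arrays stood for a gene. Of 55671 probes, 27229 matched 1 gene of the RefSeq GRCm38.p6 table, used for names. For a bound, the dim side was the lowest probe well above background, or the dim reading itself where that was higher. With 1 array per group no p-value was computed, and 2-fold was the size rule. The number of arrays limits the precision. All genes of the set were named, with up to 4 per other list by size of difference or bound, and the 5 genes nearest the set's median. Normexp (limma 3.58.1, R 4.3.3, offset 50) used median spot signals, because the planned mean signal is no column of these files. The gene set, lists, motifs and alternatives were chosen with earlier results of these data known. The calculations (Python 3.11.15) were tested on simulated data.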

Additional observations from a re-analysis of the deposited data

How the results depend on the processing

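Under 10 alternatives (scaling, background, deposited values, outlier spots, detection filter and probe choice), Lcn2, Saa1, Hp and Chil1 each stayed at least 16-fold lower in the A-CEBP sample. Over the alternatives that keep the detection filter, Lcn2 ranged from -7.01 to -6.39, Saa1 from -5.61 to -5.32, Hp from -5.00 to -4.70 and Chil1 from -4.92 to -4.22, and the least negative of each came with normexp. Bounds ranged from 8.99 to 11.06 for Saa3, 4.37 to 6.42 for Saa2, 0.49 to 1.18 for Orm2 and 0.48 to 0.77 for Serpina3n. The median of the 4 measured genes, -5.25, was -5.05 with spike-in scaling and -5.01 with normexp. Spike-in scaling moved all genes alike, and the median over all genes went from 0.04 to 0.24. Normexp added an offset of 50 to each signal, and the part of the offset in the shift with normexp was not tested. Without the detection filter all 9 genes with a probe read at least 2-fold lower and their median was -4.95, which takes in readings at background. Of all genes, 886 were then lower and 601 higher. A 1.5-fold rule gave 530 lower and 649 higher, and a 4-fold rule 70 lower and 11 higher. Spike-in scaling gave 325 higher genes and normexp 98. Medians that changed sign were those of the paralogs (0.023), of receptors and partners (0.12), of hepatocyte markers (0.038) and of adipocyte markers (0.055) with spike-in scaling, of adipocyte markers with normexp (0.015), and of macrophage markers, reported at 0.043, with the authors' deposited values (-0.0075), without the filter (-0.0099) and with the mean over probes (-0.031). No paired analysis was possible because each group has 1 sample. Signal over background limits Saa2, Saa3, Orm2 and Serpina3n to bounds.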

Other observations

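The genes next to the acute phase genes on their chromosomes were examined after the values above had been seen. The gene order was that of the RefSeq table, with 2 protein-coding genes with a probe taken on each side. Genes of the acute phase set itself were passed over, so that Saa1, Saa2 and Saa3, or Orm1 and Orm2, do not count as neighbours of each other. Of 26 such neighbours, 19 were measured on both arrays, 0 of the 19 were at least 2-fold lower, 1 was at least 2-fold higher and their median difference was -0.038. Over all genes measured on both arrays 1.71% were lower and 1.25% higher, so these counts are near what 19 genes of any kind would give. Beside the Saa genes, Saal1 differed by 0.011 and Hps5 by 0.096. Txnl4b beside Hp differed by 0.0047, and Ptges2, a prostaglandin synthase gene beside Lcn2, by -0.14. The 1 higher neighbour was Gsc, a homeobox gene on the other side of Serpina3n from its cluster, at 1.04 (-2.80 in A-CEBP and -3.84 in GFP). Within the Serpina3 cluster, Serpina3m differed by -0.72, the lowest of the 19, with a faint signal on both arrays (-4.58 in A-CEBP and -3.87 in GFP).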
